A study of Homo sapiens with 5 samples.

Results

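The genes described here make, store and break down fatty acids: 32 human genes, picked by name for their place in fatty acid and lipid droplet metabolism and found by Ensembl ID among the 19936 genes measured. They were sorted by role into synthesis (4 genes), elongation and desaturation (6), regulators (2), uptake, binding and activation (6), esterification (5), droplet coat (2), lipolysis (5) and oxidation (2). RNA came from LX-2, a human hepatic stellate cell line, immortalised and grown without other liver cells, at 48 h after transfection with siLIX1L, a small interfering RNA against LIX1L (3 libraries), or with siControl, a control small interfering RNA (2 libraries). Both groups are the same line, and the labels give the same protocol for all 5 libraries. LIX1L encodes a protein with a predicted double-stranded RNA-binding domain, and the series title links it to the chemokine CCL20 and to fibrosis. The labels name neither the sequence nor the number of siRNAs, and they do not say that libraries of a group are separate cultures, so each p-value measures no more than how these libraries vary, and that variation may be technical.

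Cells build fatty acids in the cytosol from citrate-derived acetyl-CoA, lengthen and desaturate them in the endoplasmic reticulum, and link them to coenzyme A before use. Esterification onto glycerol gives triglyceride, which is kept in lipid droplets coated by perilipins, and lipases release the fatty acids again for oxidation in mitochondria. Hepatic stellate cells are the vitamin A-storing cells of the liver: in the quiescent state they hold many droplets of retinyl ester and triglyceride, and they lose these droplets when they turn into matrix-producing myofibroblasts. LX-2 cells resemble the activated state.

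Levels are given as RPM, reads per 1000000 reads counted over genes, from totals of 14856104, 15103292 and 17811940 reads in siLIX1L 1, 2 and 3, against 14877647 and 18294056 in siControl 1 and 2. LIX1L itself was at 6.60, 7.08 and 3.65 RPM in the siLIX1L libraries, against 26.4 and 35.5 RPM in the siControl libraries, and it fell in limma's test on log2(FPKM + 1) by 0.87 ± 0.11 (SE; adjusted p = 0.0384). The means were 5.36-fold lower after siLIX1L and edgeR's log2 fold change was -2.45 (adjusted p = 0.0388); limma's call was lost, at a difference of -0.90 to -0.82, when any siLIX1L library was left out. SiLIX1L 1 and 2 were nearly alike: a chi-square comparison of their reads gave 5.84 per gene, where the other 9 pairs of libraries gave 58.4 to 174. SiLIX1L 3 was deposited with a file of another layout than the other 4. All 12 fibroblast markers were found in every library, with a summed level of 9130 to 9871 RPM after siLIX1L and 6008 to 12405 RPM after siControl. Of 10 markers of quiescent stellate cells, 2 had 3 reads or fewer in every library, among them LRAT, the enzyme that makes retinyl ester, listed at 0. The sum of the 10, mostly ECM1, was 174 to 205 RPM after siLIX1L and 313 to 325 RPM after siControl. These markers did not move together. Mean levels after siLIX1L and siControl were 147 and 227 RPM for ECM1 and 18.0 and 71.2 RPM for NGFR. In the other direction, they were 21.3 and 7.94 RPM for RELN and 0.633 and 0.481 RPM for GFAP. Of 10 hepatocyte markers, 8 had 3 reads or fewer in every library (sum 2.32 to 4.38 RPM after siLIX1L, 4.17 to 7.49 RPM after siControl), and of 8 adipocyte markers 4 did (165 to 188 RPM after siLIX1L, 112 to 163 RPM after siControl, nearly all of it ADIPOR2), with ADIPOQ and FABP4 listed at 0. Sums for leukocyte markers, mostly CD14, were 6.96 to 10.3 RPM after siLIX1L and 12.3 to 39.6 RPM after siControl. CD14 alone was at 6.53, 7.81 and 4.72 RPM after siLIX1L, against 8.81 and 35.7 RPM after siControl. Sums for endothelial markers were 5.18 to 9.07 RPM after siLIX1L and 4.86 to 9.88 RPM after siControl. For cholangiocyte markers, mostly SOX9, they were 53.9 to 105 RPM after siLIX1L and 31.4 to 46.4 RPM after siControl. Mitochondrially encoded genes took 1.08, 1.29 and 1.14% of reads after siLIX1L, against 2.24 and 3.35% after siControl. The part of these differences in the results was not tested, and in bulk RNA a smaller number of cells of a type cannot be told apart from less RNA per cell.

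None of the 32 genes passed the threshold of 0.05 on the adjusted p of limma or of edgeR. Limma, run on genes that reached 1 FPKM in 2 or more libraries, tested 17 of them and called 0, and it called 1.87% of all genes it tested (121 of 6464). At an unadjusted p under 0.05 limma had 4 of the 17 (23.5%), against 27.6% of all genes. EdgeR's quasi-likelihood test on reads tested all 32 and called 0, against 0.891% called of all genes (116 of 13026). At an unadjusted p under 0.05 edgeR had 7 of the 32 (21.9%), against 25.8% of all genes. DESeq2's Wald test called 3 of the 32, with ABHD5 and PNPLA3 higher and PLIN2 lower after siLIX1L, in a comparison where it called 12.5% of all genes. Without siControl 1 limma called 3 of 17 (ABHD5, AGPAT2 and DGAT1), against 24.1% of all genes, and edgeR called 5 of 32 (those 3, LPIN1 and MGLL), against 22.4% of all genes. With a single control library left, the spread in these fits comes from the siLIX1L libraries alone, of which 1 and 2 are nearly alike, and the lone library is assumed to vary like them. Adjusted p-values of the 32 ran between 0.0969 and 0.939 with limma and between 0.0777 and 0.996 with edgeR. These p-values do not show that the genes stayed the same, since with 2 control libraries the intervals are wide.

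Mean RPM was higher after siLIX1L for 22 of the 32 genes and lower for 10. The median edgeR log2 fold change was 0.24, against -0.04 over all genes tested, and 21 of the 32 had a positive one, against 47.3% of all genes. The groups did not overlap for 15 of the 32 genes (46.9%), close to the 44.1% of all genes for which they did not. Of these 15 genes 11 were higher after siLIX1L and 4 were lower, where 22.2% of all genes stood apart with siLIX1L higher. For 20 of the 32 genes the 2 siControl libraries differed from each other by more than the 2 group means did, and for 10 the difference of the means was larger than the range within either group. SiLIX1L 1 and 2 were within 1.2-fold of each other for 28 genes, and the siControl libraries for 7. SiLIX1L 3 was the highest library for 14 genes, and siControl 1 and siControl 2 were each the lowest for 11. These counts of ranges and of highest or lowest libraries were made for the 32 genes alone. Whether they are particular to these genes was not tested. Across the 32 genes the edgeR log2 fold change had a Spearman's rho of 0.27 with transcript length and -0.37 with transcript GC content, against 0.39 and -0.27 across all genes; all points come from the same 5 libraries. The 10 genes that were lower had a median GC content of 55.4%, and the 22 that were higher 48.5%.

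**Figure D1:**
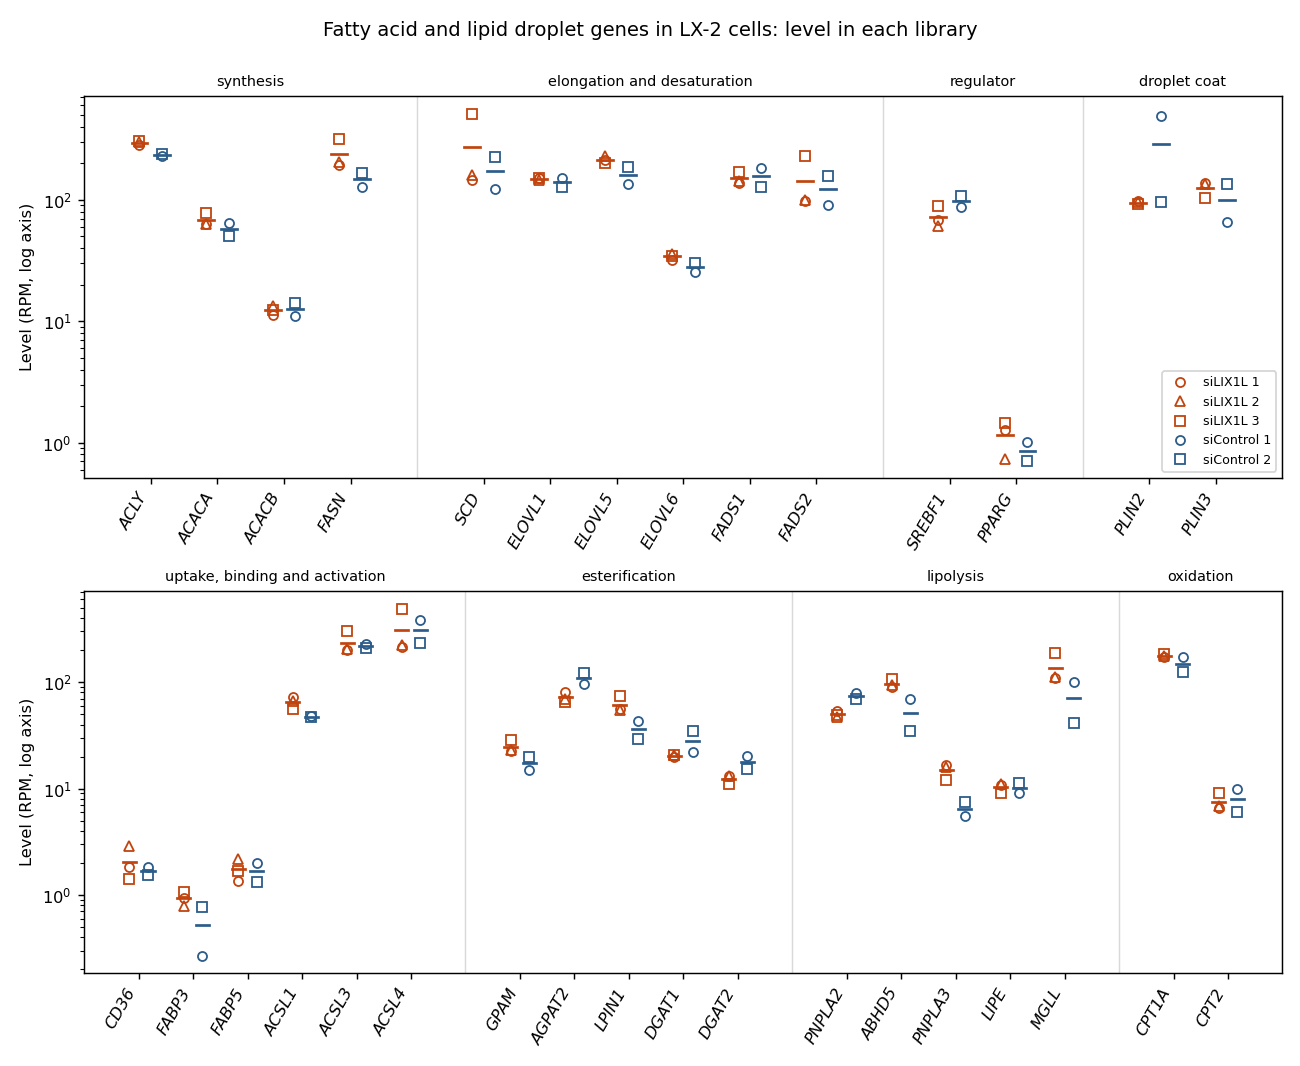
Level of each of the 32 genes in each library (RPM, log axis), by role, with siLIX1L libraries in orange left of siControl libraries in blue and a bar at each group mean. PLIN2 of siControl 1 (487 RPM) stands far above the other 4 libraries (92.3 to 97.7 RPM), and SCD of siLIX1L 3 (513 RPM) above the other 4 (122 to 225 RPM).

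The synthesis genes with the best separated groups were ACLY and FASN. ACLY, ATP citrate lyase, which makes cytosolic acetyl-CoA, was at 284, 298 and 304 RPM after siLIX1L, against 230 and 241 RPM after siControl. Every siLIX1L library was above both siControl libraries, by 1.25-fold in the means, and limma's difference on log2(FPKM + 1) was 0.26 ± 0.13 (SE; adjusted p = 0.238); with a trend on transcript length and GC content removed it was 0.14. FASN, the synthase that builds palmitate, was at 195, 206 and 317 RPM after siLIX1L, against 127 and 167 RPM after siControl. The groups stood apart, siLIX1L 3 was the highest by a wide margin, and the fold was 1.63, or 1.36 without siLIX1L 3. Limma's difference for FASN was 0.61 ± 0.24 (SE; adjusted p = 0.168).

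The acetyl-CoA carboxylases make malonyl-CoA, ACACA in the cytosol for synthesis and ACACB at mitochondria, where malonyl-CoA restrains CPT1. ACACA was at 62.8, 63.4 and 78.4 RPM after siLIX1L, against 64.7 and 50.7 RPM after siControl. ACACB was at 11.2, 13.4 and 12.3 RPM after siLIX1L, against 11.1 and 14.2 RPM after siControl. Both genes overlapped between the groups, with edgeR log2 fold changes of 0.24 (adjusted p = 0.497) and -0.06 (adjusted p = 0.91). Per kilobase of longest transcript ACACA was 5.28, 4.43 and 5.99 times as abundant as ACACB after siLIX1L, and 5.48 and 3.36 times after siControl, so the cytosolic form led in all 5 libraries. Per kilobase of transcript the order of level in the siLIX1L group was ACLY (68.1 RPM per kb), FASN (27.9), ACACA (6.85) and ACACB (1.31), and in the siControl group 54.3, 17.2, 5.79 and 1.35 RPM per kb in the same order.

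SCD, the stearoyl-CoA desaturase that makes oleate, showed the widest range within the siLIX1L group. It was at 146, 159 and 513 RPM after siLIX1L, against 122 and 225 RPM after siControl. One library, siLIX1L 3, was 3.35 times the mean of siLIX1L 1 and 2, and the groups overlapped. Limma's difference was 0.43 ± 0.54 (SE; 95% interval -0.87 to 1.74, adjusted p = 0.637), and without siLIX1L 3 it was -0.11. FADS2, the delta-6 desaturase of polyunsaturated fatty acids, had the same shape, at 97.3, 101 and 231 RPM after siLIX1L, against 90.0 and 157 RPM after siControl. It was highest in siLIX1L 3, 2.33 times the mean of the other siLIX1L libraries, and was also higher in siControl 2 than in siControl 1.

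SCD is the classic target of the sterol-response factor SREBP-1 among desaturases, so its promoter is shown, in capitals the matches found in the 250 bases before the RefSeq start. They are 2 copies of CCAAT, the box bound by NF-Y, whose first bases lie 229 and 186 bases before the start, and a match to CACNCCAC, a core of the sterol-response element, read on the opposite strand, 114 bases before the start. The stretch is chr10:100346983-100347126 on the plus strand of GRCh38.p14.
SCD: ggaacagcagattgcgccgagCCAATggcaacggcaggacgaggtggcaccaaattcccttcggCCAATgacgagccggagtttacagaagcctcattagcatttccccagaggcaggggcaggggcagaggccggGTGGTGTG
RefSeq entries were found for 26 of the 32 genes, 50 promoters in all since a gene can have several starts. CACNCCAC was found on either strand in 6 of the 50, of ACACA, ACSL1, ACSL4, LIPE, PNPLA2 and SCD, against 4.87% of all 35116 promoters at the same length. CCAAT was found in 15 of the 50, against 32% of all promoters. A match is a run of letters and not a measured binding site.

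FADS1, the delta-5 desaturase, was at 137, 143 and 171 RPM after siLIX1L, against 184 and 128 RPM after siControl, with overlapping groups. FADS1 and FADS2 overlap each other on opposite strands of chromosome 11, and the strand setting of the counting is not given, so reads of the pair may be shared. FEN1 overlaps FADS2 on the same strand, so some reads of FADS2 could be its neighbour's. FEN1 was at 204, 191 and 224 RPM after siLIX1L, against 253 and 274 RPM after siControl. Per kilobase of transcript the ratio of FADS2 to FADS1 was 0.886, 0.877 and 1.68 after siLIX1L, and 0.609 and 1.53 after siControl, a spread as wide within each group as between them. ELOVL5, which elongates polyunsaturated fatty acids, was at 211, 229 and 200 RPM after siLIX1L, against 136 and 187 RPM after siControl. ELOVL6, which takes palmitate to stearate, was at 32, 36.1 and 34.8 RPM after siLIX1L, against 25.7 and 30.4 RPM after siControl. Both elongases were higher in every siLIX1L library than in either siControl library, with folds of 1.32 (limma adjusted p = 0.244) and 1.22 (edgeR adjusted p = 0.425). ELOVL1, which makes very long saturated chains, was at 151, 146 and 150 RPM after siLIX1L, against 152 and 128 RPM after siControl, and overlapped.

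SREBF1, the gene of SREBP-1 and so of the main activator of the synthesis genes, ran lower rather than higher after siLIX1L. It was at 68.0, 60.8 and 88.8 RPM after siLIX1L, against 87.8 and 108 RPM after siControl. The groups touched, since siLIX1L 3 lay just above siControl 1, and limma's difference was -0.34 ± 0.17 (SE; adjusted p = 0.25). PPARG, the nuclear receptor of adipogenesis, was close to the limit of detection, at 1.28, 0.728 and 1.46 RPM after siLIX1L, against 1.01 and 0.711 RPM after siControl, from 56 reads in the siLIX1L group and 28 in the siControl group. No difference in PPARG was detected (edgeR adjusted p = 0.598).

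The 3 uptake and binding genes among the 32 were at a few RPM or less. CD36, a fatty acid transporter of the plasma membrane, was at 1.82, 2.91 and 1.40 RPM after siLIX1L, against 1.81 and 1.53 RPM after siControl. FABP3, a cytosolic fatty acid-binding protein first known from heart, was at 0.942, 0.795 and 1.07 RPM after siLIX1L, against 0.269 and 0.765 RPM after siControl, from 45 and 18 reads in all. FABP5, its epidermal relative, was at 1.35, 2.18 and 1.68 RPM after siLIX1L, against 2.02 and 1.31 RPM after siControl. GENCODE 29 names 14 FABP5 pseudogenes, and reads shared with them may be missing or misplaced, so its level is uncertain; SCD, FADS2 and FABP3 have 1 named pseudogene each. A count of 0 would allow 0.164 to 0.202 RPM in these libraries, so all 3 genes were above that limit, but none of their differences passed the test (edgeR adjusted p = 0.402 to 0.933).

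Long-chain acyl-CoA synthetases join coenzyme A to fatty acids. ACSL1 was at 72.8, 66.7 and 56.0 RPM after siLIX1L, against 48.2 and 46.6 RPM after siControl. The groups stood apart, with close siControl libraries and a fold of 1.37, but edgeR's adjusted p was 0.196 at a log2 fold change of 0.44. ACSL3, the form on the endoplasmic reticulum and new droplets, was at 200, 205 and 302 RPM after siLIX1L, against 229 and 209 RPM after siControl, and was above both siControl libraries in siLIX1L 3 alone. ACSL4, which prefers arachidonate, was at 215, 223 and 490 RPM after siLIX1L, against 387 and 236 RPM after siControl. ACSL4 thus had its highest value in one group and its next highest in the other, with a difference of group means near 0. Its ratio to ACSL1 per kilobase of transcript was 2.28, 2.57 and 6.72 after siLIX1L, and 6.18 and 3.89 after siControl.

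**Figure D2:**
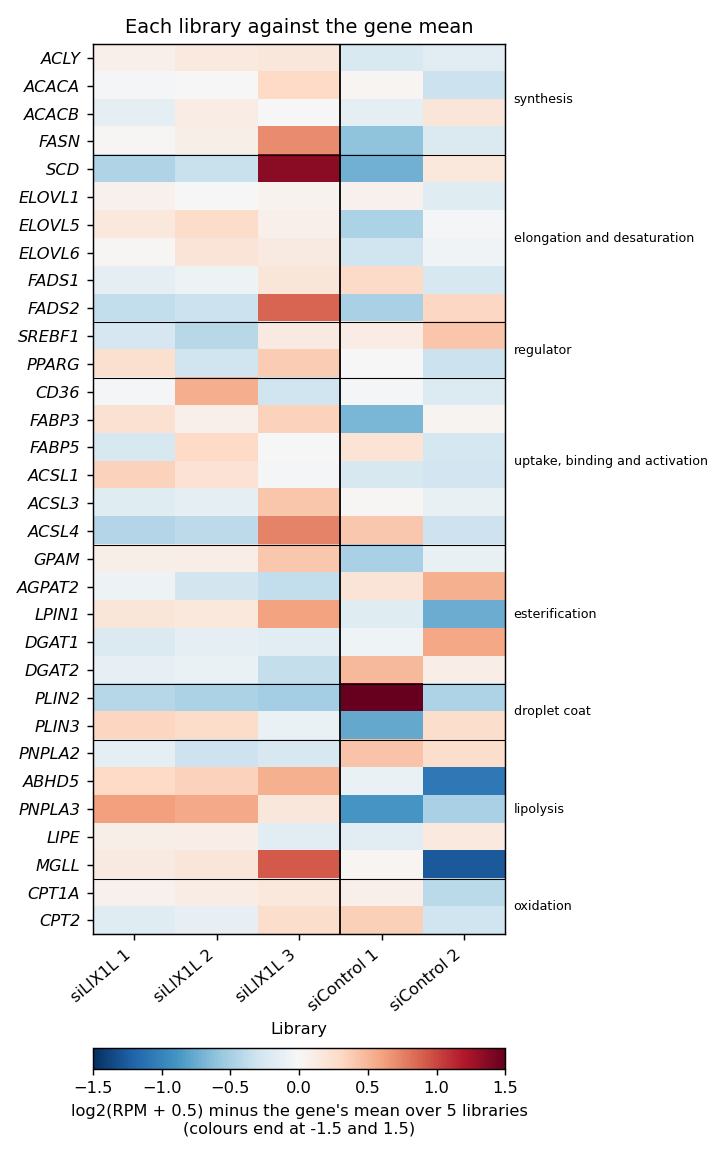
Colour shows log2(RPM + 0.5) in each library minus the gene's mean over the 5 libraries, for the 32 genes by role (rows) and the libraries (columns, siLIX1L left of the line). SCD, FADS2, FASN and ACSL4 are highest in siLIX1L 3, PLIN2 in siControl 1, and ABHD5 and MGLL are lowest in siControl 2.

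All 5 esterification genes had groups that did not overlap, as did 44.1% of all genes, with 2 of them higher after siLIX1L and 3 lower, and 0 passed limma or edgeR. The higher ones act at the entry of the pathway and at the phosphatase step. GPAM, the mitochondrial acyltransferase that starts glycerolipid synthesis, was at 22.7, 22.8 and 28.4 RPM after siLIX1L, against 15.1 and 19.6 RPM after siControl. LPIN1, the phosphatidate phosphatase lipin-1, was at 55.6, 54.6 and 74.6 RPM after siLIX1L, against 43.0 and 29 RPM after siControl. LPIN1 had the larger fold, 1.71, or 1.43 without siControl 2 and 2.12 without siControl 1, with an edgeR log2 fold change of 0.77 (adjusted p = 0.121, and 0.258 for GPAM at 0.49).

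The 3 lower genes are an acyltransferase that makes phosphatidate and the 2 that finish triglyceride. AGPAT2 was at 80.1, 70.1 and 65.2 RPM after siLIX1L, against 96.8 and 122 RPM after siControl, 1.53-fold lower in the means and 1.71-fold lower without siControl 1. Limma's difference for AGPAT2 was -0.52 ± 0.16 (SE; 95% interval -0.92 to -0.12, adjusted p = 0.112), and -0.07 (adjusted p = 0.793) once a trend on transcript length and GC content was removed from each library. DGAT1 was at 19.8, 20.8 and 20.5 RPM after siLIX1L, against 21.9 and 34.7 RPM after siControl. It overlaps HSF1 on the opposite strand, and with the strand setting unknown some reads could be those of HSF1. HSF1 was at 127, 123 and 143 RPM after siLIX1L, against 138 and 125 RPM after siControl. Most of the DGAT1 difference came from siControl 2, since the level after siLIX1L was 1.39-fold lower than the mean of both siControl libraries, 1.70-fold lower than siControl 2 alone and 1.08-fold lower than siControl 1 alone. DGAT2, whose product is unrelated in sequence to that of DGAT1, was at 13.1, 13.2 and 10.9 RPM after siLIX1L, against 20.0 and 15.3 RPM after siControl. Limma's adjusted p was 0.28 for DGAT1 and edgeR's was 0.203 for DGAT2. Both acyltransferases had similar levels per kilobase of transcript, at a DGAT1 to DGAT2 ratio of 1.0, 1.04 and 1.24 after siLIX1L, and 0.723 and 1.5 after siControl.

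PLIN2, perilipin 2 or adipophilin, the coat protein found on droplets of most cells, differed more between the siControl libraries than any other of the 32 genes. It was at 97.7, 95.1 and 92.3 RPM after siLIX1L, against 487 and 95.3 RPM after siControl. The 3 siLIX1L libraries and siControl 2 lay within a few percent of each other, and siControl 1 was 5.10 times siControl 2. The means gave a 3.06-fold lower level after siLIX1L, but the group means were 95 ± 2.69 RPM after siLIX1L (SD, n = 3) and 291 ± 277 RPM after siControl (SD, n = 2). Limma's difference was -0.98 (95% interval -2.21 to 0.25, adjusted p = 0.264), -1.96 without siControl 2 and -0.003 without siControl 1. EdgeR's log2 fold change was -1.60 (adjusted p = 0.13), and DESeq2, which called PLIN2, gave -1.59 (adjusted p = 0.0224). The call rests on a single control library.

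PLIN3, perilipin 3 or TIP47, which moves between cytosol and small droplets, was at 139, 135 and 104 RPM after siLIX1L, against 65.1 and 134 RPM after siControl. In siControl 1, where PLIN2 was highest, PLIN3 was lowest, and the ratio of PLIN2 to PLIN3 per kilobase of transcript was 0.831, 0.836 and 1.05 after siLIX1L, and 8.84 and 0.841 after siControl. Limma's difference for PLIN3 was 0.31 (adjusted p = 0.459).

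The PLIN2 promoter is shown as that of the gene with the widest gap between libraries. Within the 250 bases before its RefSeq start it holds an E-box, CACGTG, in capitals, whose first base lies 69 bases before the start, and no match to CACNCCAC or CCAAT. The letters CACGTG were found on either strand in 2 of the 50 promoters, of ELOVL5 and PLIN2, against 6.34% of all promoters; they read the same on both strands. The stretch is chr9:19127556-19127742 on the minus strand of GRCh38.p14.
PLIN2: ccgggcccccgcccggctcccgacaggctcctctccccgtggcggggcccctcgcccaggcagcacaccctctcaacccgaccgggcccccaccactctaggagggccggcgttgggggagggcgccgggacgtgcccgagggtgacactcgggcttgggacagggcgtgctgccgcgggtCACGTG

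Lipolysis held the smallest adjusted p of the 32 genes in both tests, PNPLA2 with limma and PNPLA3, which limma did not test, with edgeR. The directions were opposite: the lipase PNPLA2 was lower after siLIX1L, and its activator ABHD5 and the related PNPLA3 were higher. PNPLA2, adipose triglyceride lipase (ATGL), which removes the first fatty acid from triglyceride, was at 53.1, 47.1 and 49.5 RPM after siLIX1L, against 78.8 and 70.0 RPM after siControl. The groups stood well apart, 1.49-fold lower in the means and between 1.40-fold and 1.58-fold lower with either siControl library left out. Limma's difference was -0.52 ± 0.15 (SE; 95% interval -0.88 to -0.16, adjusted p = 0.0969), and edgeR's log2 fold change was -0.59 (adjusted p = 0.1). With a trend on transcript length and GC content removed, limma's difference was -0.24 (adjusted p = 0.414).

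As the gene with limma's smallest adjusted p, PNPLA2 is shown with its promoter, chr11:818664-818901 on the plus strand of GRCh38.p14. In capitals is a match to CACNCCAC on the opposite strand, with its first base 153 bases before the RefSeq start, and CCAAT and CACGTG were not found in the 250 bases.
PNPLA2: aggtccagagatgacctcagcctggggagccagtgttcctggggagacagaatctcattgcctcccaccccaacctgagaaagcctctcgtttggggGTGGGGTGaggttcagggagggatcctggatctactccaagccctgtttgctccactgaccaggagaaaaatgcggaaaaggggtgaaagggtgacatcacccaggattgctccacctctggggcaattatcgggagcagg

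ABHD5, or CGI-58, the protein that activates ATGL, was at 90.5, 93.6 and 107 RPM after siLIX1L, against 69.0 and 34.7 RPM after siControl. It was higher in all 3 siLIX1L libraries, 1.87-fold in the means, but the siControl libraries were 1.99-fold apart, and the fold was 2.80 without siControl 1 and 1.41 without siControl 2. Limma's difference was 0.58 ± 0.18 (SE; 95% interval 0.15 to 1.0, adjusted p = 0.105), or 0.37 with the length and GC trend removed, and edgeR's adjusted p was 0.115; DESeq2 called it (adjusted p = 0.0405). Per kilobase of transcript the ratio of ABHD5 to PNPLA2 was 0.771, 0.899 and 0.976 after siLIX1L, and 0.396 and 0.224 after siControl. The ratio could not overlap between the groups, since ABHD5 was higher and PNPLA2 lower in every siLIX1L library. ABHD5 overlaps ANO10 on the opposite strand, and ANO10 was at 92.6, 88.2 and 94.8 RPM after siLIX1L, against 105 and 87.2 RPM after siControl.

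PNPLA3, the lipase relative best known for its variant in fatty liver disease, had the smallest adjusted p with edgeR. It was at 16.5, 16.0 and 12 RPM after siLIX1L, against 5.51 and 7.43 RPM after siControl. Every siLIX1L library was above both siControl libraries, 2.29-fold in the means, from 700 and 218 reads, with an edgeR log2 fold change of 1.17 (adjusted p = 0.0777) and a DESeq2 call (adjusted p = 0.00498). SAMM50 overlaps it on the same strand and was at 60.6, 53.4 and 53.5 RPM after siLIX1L, against 33.7 and 57.6 RPM after siControl, so some reads of PNPLA3 could be its neighbour's.

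The lipases that act after ATGL were read with less precision or did not separate. LIPE, hormone-sensitive lipase, was at 10.8, 10.9 and 9.04 RPM after siLIX1L, against 9.07 and 11.3 RPM after siControl, with an edgeR log2 fold change of -0.01 (adjusted p = 0.983). MGLL, monoglyceride lipase, was at 109, 112 and 187 RPM after siLIX1L, against 101 and 41.1 RPM after siControl. MGLL stood just apart between the groups, 1.92-fold higher in the means, 1.35-fold without siControl 2 and 3.31-fold without siControl 1, and edgeR's adjusted p was 0.2. In GENCODE, MGLL overlaps SEC61A1 on the opposite strand. SEC61A1 was at 808, 759 and 609 RPM after siLIX1L, against 503 and 566 RPM after siControl. The deposited length of MGLL, 134189 bases, is shorter than its GENCODE span, bases 127689062 to 128052190 of chromosome 3. The extent on which its reads were counted is thus not known, nor whether that extent overlaps SEC61A1. With the strand setting also unknown, whether MGLL holds reads of this neighbour cannot be told. Per kilobase of transcript PNPLA2 was 7.70, 6.77 and 8.59 times as abundant as LIPE after siLIX1L, and 13.6 and 9.72 times after siControl.

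CPT1A and CPT2 carry long-chain acyl groups across the outer and inner mitochondrial membranes, and neither separated the groups. CPT1A, the controlled step, was at 172, 177 and 184 RPM after siLIX1L, against 173 and 125 RPM after siControl, with a limma difference of 0.17 ± 0.13 (SE; adjusted p = 0.439). CPT2 was at 6.60, 6.89 and 9.15 RPM after siLIX1L, against 9.81 and 6.07 RPM after siControl, with an edgeR log2 fold change of -0.07 (adjusted p = 0.91). In siControl 1 both were at least as high as in siLIX1L 1, and in siControl 2 both were below all siLIX1L libraries. CPT2 overlaps C1orf123 on the opposite strand, and with the strand setting unknown reads may be shared. C1orf123 was at 26.7, 27.1 and 22.7 RPM after siLIX1L, against 38.9 and 37.6 RPM after siControl.

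**Figure D3:**
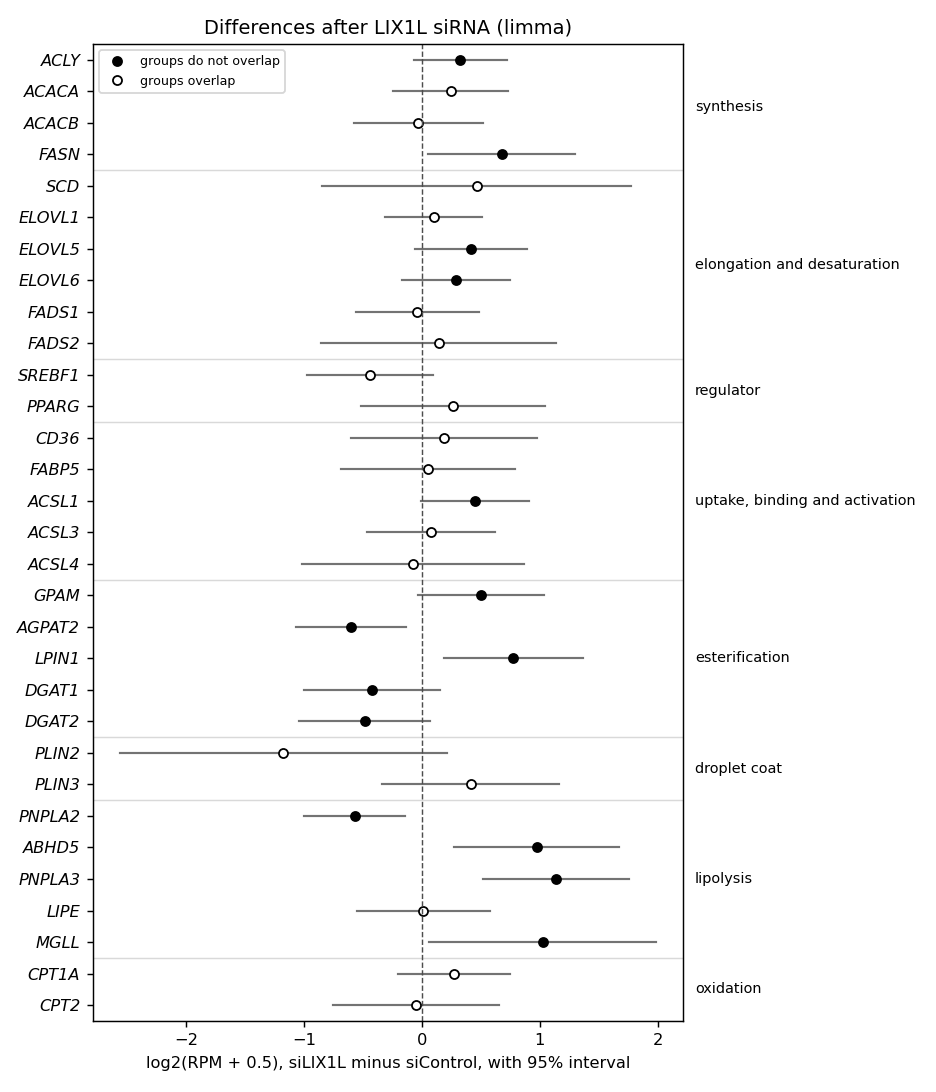
Difference in log2(RPM + 0.5), siLIX1L minus siControl, from limma run on RPM, with 95% intervals for the 31 genes tested on that scale, by role. The minimum was 1 RPM in 2 or more libraries, and FABP3 reached 1 RPM in siLIX1L 3 alone. Filled points have groups that do not overlap; none of the 31 passed an adjusted p of 0.05, and PLIN2 has the widest interval (-2.57 to 0.21).

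A further 117 genes of the same pathways, listed by role from textbook knowledge, had 0 calls by limma or edgeR and 17 by DESeq2. Of these genes 14 had 3 reads or fewer in every library, 5 of them with 0 in all. Limma tested 46, of which 18 (39.1%) had an unadjusted p under 0.05, against 27.6% of all genes. EdgeR tested 96, of which 28 (29.2%) did, against 25.8% of all genes. The 17 that DESeq2 called, 4 higher and 13 lower after siLIX1L, were 17.5% of the 97 to which it gave an adjusted p, against 12.5% of all genes. The median edgeR log2 fold change of the 96 was -0.09, against 0.24 for the 32 genes above and -0.04 for all genes. Groups did not overlap for 42 of the 96 genes (43.8%), near the share of all genes.

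The 4 of these with limma's smallest p-values belong to elongation, esterification and oxidation. HACD2, a dehydratase of the elongation cycle, was at 186, 201 and 207 RPM after siLIX1L, against 91.2 and 118 RPM after siControl, with a limma difference of 0.56 (adjusted p = 0.0609). AGPAT3, an acyltransferase, was at 240, 260 and 212 RPM after siLIX1L, against 132 and 134 RPM after siControl (0.50, adjusted p = 0.0687). ACADS, the short-chain acyl-CoA dehydrogenase, was at 12.5, 8.81 and 13.1 RPM after siLIX1L, against 21.0 and 27.2 RPM after siControl (-0.57, adjusted p = 0.0661). In all 4 the groups stood apart, and the fourth, ECI1, an isomerase of the oxidation of unsaturated chains, was at 27.0, 25.2 and 31.7 RPM after siLIX1L, against 53.5 and 45.0 RPM after siControl (-0.60, adjusted p = 0.0676).

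By role, of the 27 oxidation genes of this list that edgeR tested, 6 had a positive and 21 a negative log2 fold change, with a median of -0.20, where 47.3% of all genes had a positive one. Groups did not overlap for 9 of the 27 (33.3%), and these 9 were lower after siLIX1L. Of all genes 44.1% stood apart in either direction, 22.2% with siLIX1L higher and the rest with it lower. Since the 9 share a direction, the 44.1% is not their matching share. Of the 16 other regulators tested 12 had a positive and 4 a negative log2 fold change, with a median of 0.30. Neither limma nor edgeR called any gene of either role, and the directions by role were not tested. SREBF2, the gene of the related SREBP-2, was at 216, 238 and 308 RPM after siLIX1L, against 136 and 191 RPM after siControl (limma 0.46, adjusted p = 0.159). INSIG1, which holds SREBPs in the endoplasmic reticulum, was at 113, 119 and 53.8 RPM after siLIX1L, against 27.3 and 81.0 RPM after siControl (limma 0.76, adjusted p = 0.308), with siLIX1L 3 below siControl 2. G0S2, the inhibitor of ATGL, was at 45.2, 44.8 and 31.0 RPM after siLIX1L, against 115 and 55.4 RPM after siControl (limma -0.99, adjusted p = 0.134); its ratio to PNPLA2 per kilobase of transcript, 2.39, 2.67 and 1.76 after siLIX1L and 4.09 and 2.22 after siControl, overlapped. SREBF2, INSIG1 and G0S2 were chosen after their values were seen, as partners of genes described above.

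**Figure D4:**
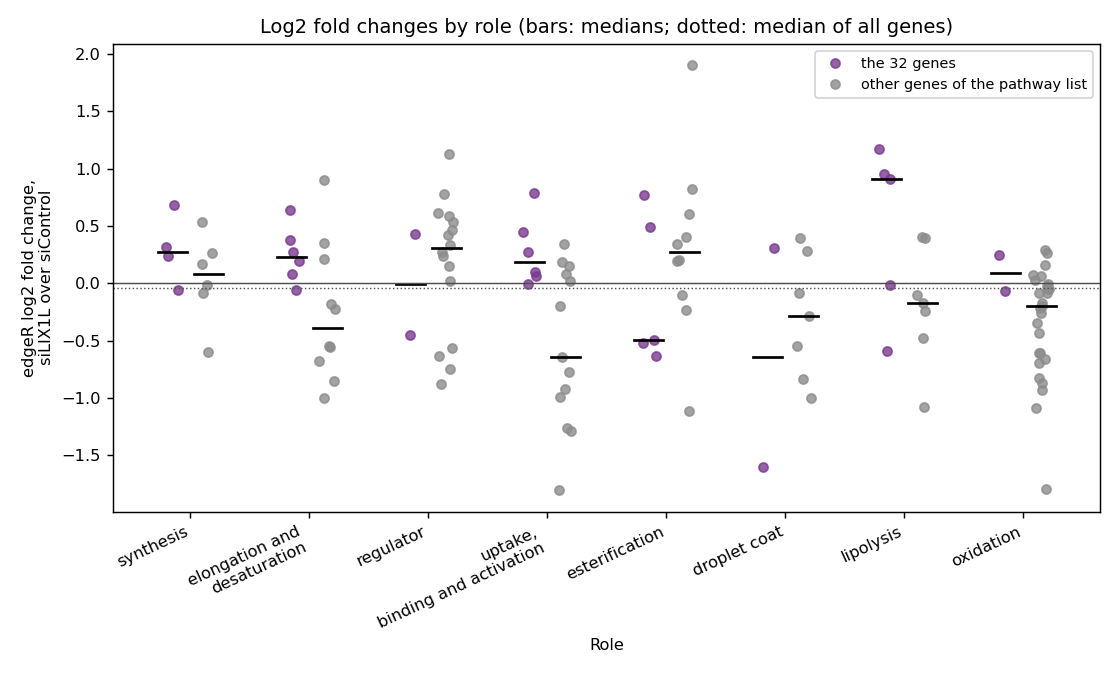
EdgeR log2 fold changes (siLIX1L over siControl) by role, for the 32 genes in purple, left, and the other tested genes of the pathway list in grey, right, with bars at medians and a dotted line at the median of all genes (-0.04). The 5 lipolysis genes have a median of 0.91 and run between -0.59 and 1.17, and the 27 other oxidation genes have a median of -0.20.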

How the data were processed

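The 5 libraries (3 siLIX1L, 2 siControl) were assigned to groups from the siRNA that each label names. What the authors deposited is FPKM per gene for every library, and for siLIX1L 3 also a gene length and raw read counts, per the file headers. Among tools and builds, the submitters' processing notes list Bowtie 0.12.2, an aligner that does not split reads over exon junctions, and mm8, a mouse build, although the IDs are human; sources used here do not give the counter, the strand setting or the true build. Deposited lengths were equal to GENCODE 29 gene spans, introns included, for 98.2% of genes found there, so the FPKM minimum leaves out genes with long introns. Whole reads were recovered from FPKM times length: 100% of values were whole to 0.01 reads, and they were equal to the deposited counts of siLIX1L 3 for all 19936 genes. RPM uses the totals of these reads. A count of 0 allows up to 3 reads; this covers counting error only. Levels per kilobase use the longest GENCODE 29 transcript.

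Limma 3.58.1 in R 4.3.3 (trend and robust, no covariates, two-sided, Benjamini-Hochberg over all genes tested, threshold 0.05) on log2(FPKM + 1) gave the main test, for genes that reached 1 FPKM in 2 or more libraries. Its differences understate the change of low genes. On the recovered reads, the quasi-likelihood test of edgeR 4.0.16 with TMM and the Wald test of DESeq2 1.42.0 were run; edgeR called 116 genes. Fits were tested on simulated data. Figures were drawn with matplotlib 3.10.9. Promoters are RefSeq's, GRCh38.p14; each is printed as far as the first GENCODE 29 exon or the end of the last motif. The members and lists were chosen with earlier results of these data known. Every member is named with its levels; of the other list those past limma's threshold, or with none the 4 smallest p. Alternatives varied the minimum, pseudocount, scaling, normalization, test, replicate block, a length and GC trend (loess), the averaging of siLIX1L 1 and 2, and the libraries; edgeR's own block, averaging and left-out libraries were chosen after seeing the data.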

Additional observations from a re-analysis of the deposited data

How the results depend on the processing

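The number of genes called by limma, 121, was 0 with no minimum level, 0 with the length and GC trend removed, 0 with siLIX1L 1 and 2 averaged, 233 with quantile normalization, 1673 with DESeq2 and 0 to 1517 with a library left out (1517 without siControl 1, 258 without siControl 2, 0 without any siLIX1L library). Of the 32 genes limma called 0, DESeq2 3 and a left-out library 0 to 3 (ABHD5, AGPAT2 and DGAT1 without siControl 1; PLIN2 without siControl 2); of the other list DESeq2 called 17 and a left-out library 0 to 11. EdgeR called 116 genes and 0 of the 32; with siLIX1L 1 and 2 averaged it called 0 genes, and with a library left out 0 to 2998 genes (373 without siControl 2) and 0 to 5 of the 32. LIX1L lost its call at the same -0.87 with no minimum level, at -0.98 with the trend removed, at -0.89 with the average and at -0.90 to -0.82 without a siLIX1L library. With either siControl library left out, or a minimum of 5 FPKM, LIX1L was under the minimum and gave no value; at 5 FPKM 6 of the 32 genes were tested.

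No label says that replicate numbers pair the libraries. The deviations of same-numbered libraries from their group means correlated at -0.12 and -0.10. With 2 siControl libraries these deviations mirror each other, so the correlations cannot exclude a pairing. With the replicate block limma called 94 genes and 0 of the 32. With the block and the trend removed limma called 481 genes and 1 of the other list (INSIG1). EdgeR with the block called 1146 of 13026 genes and 2 of the 32 (PNPLA3 higher, PLIN2 lower), a smaller share than of all genes. Under the block the sign turned for SCD (-0.11), FADS2 (-0.17), ACSL3 (-0.082) and LIPE (0.075 with edgeR), and under the block with the trend removed for SCD (-0.31), FADS2 (-0.11), ACSL3 (-0.33), AGPAT2 (0.019) and CPT1A (-0.017). Only siLIX1L has a replicate 3, so the block takes up siLIX1L 3 in full and the difference rests on replicates 1 and 2. Without the trend removed, the block's limma values for SCD, FADS2 and ACSL3 are thus those without siLIX1L 3. Other causes of these turns were not tested.

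In all, 14 of the 32 genes changed sign under some alternative and 18 did not. Other turns were FADS1 with quantile normalization (0.0021) and with the average (0.0051), ACSL3 with the trend removed (-0.15), ACSL4 with DESeq2 (0.0072) and with the average (0.10), LIPE with no minimum (0.0032), limma on RPM (0.013) and DESeq2 (0.0038), and CPT2 with edgeR's average (0.0098). With libraries left out in turn, log2 differences that turned ran between -0.24 and 0.18 for ACACB, -0.11 and 0.83 for SCD, -0.025 and 0.22 for ELOVL1, -0.25 and 0.18 for FADS1, -0.17 and 0.35 for FADS2, -0.068 and 0.48 for CD36, -0.19 and 0.37 for FABP5, -0.082 and 0.14 for ACSL3, -0.33 and 0.22 for ACSL4, -0.082 and 0.71 for PLIN3, -0.18 and 0.20 for LIPE and -0.35 and 0.28 for CPT2. For PPARG, CD36, FABP3 and FABP5, with under 100 reads in each group, depth limits what can be seen.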
